A study of Mus musculus with 47 samples.

Results

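The Notch pathway genes described here are 33 of the 38215 genes in the deposited count table, taken by gene symbol: 4 receptors (Notch1 to Notch4), 5 ligands (Dll1, Dll3, Dll4, Jag1, Jag2), 3 fringe glycosyltransferases (Lfng, Mfng, Rfng), the protease Adam10, the nuclear complex genes Rbpj, Maml1, Maml2 and Maml3, 6 Hes and 3 Hey family genes with the feedback inhibitor Nrarp, and the regulators Numb, Numbl, Dtx1, Dtx2, Dtx3 and Dtx4. Of the 33, 31 passed the filter on low counts and were tested; Hes2 had 1 count over all libraries and Hes7 did not exceed 0.394 CPM in any library, where CPM is the gene count divided by the scaled library total in megacounts (M). Total RNA was sequenced from cranial neural crest cells of the mouse, which were micro-dissected, dissociated and sorted by flow cytometry. The 47 libraries fall into 16 groups. Wild-type (WT) cells came from embryonic day (E) 8.5, labelled NCCprogenitors (n = 3), and from 4 subpopulations, which in the usual embryological shorthand are the frontonasal process, FNP, the 2 prominences of the first pharyngeal arch, Mx (maxillary) and Md (mandibular), and the second pharyngeal arch, PA2, at E10.5 (n = 3, but n = 2 for Mx) and at E11.5 (n = 3 each). At E10.5 the same 4 subpopulations were taken from embryos labelled Ezh2cKO, an Ezh2 conditional knockout (n = 3 each), and Md also from HoxA2OE, a Hoxa2 overexpression (n = 3). At E11.5 PA2 was also taken from a group labelled Hoxa2TempMut, a temporal Hoxa2 knockout, and from its own Control (n = 3 each). The Cre driver, the promoter of the overexpression, the alleles of the Control, the strain, the time of Hoxa2 deletion and the sorting reporter were not given in the sources used here. Nothing states that replicates came from separate embryos or litters, and the p-values therefore reflect only how far these libraries spread, which may in part be technical.

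Notch receptors are cleaved when a Delta or Jagged ligand on a neighbouring cell pulls on them, first by ADAM10 and then by gamma-secretase, and the released intracellular domain joins RBPJ and a Mastermind co-activator on DNA. Several of the Hes and Hey genes, which encode bHLH repressors, are direct targets in many tissues, as is Nrarp, which limits the nuclear complex. Fringe enzymes modify receptor sugars and so shift the response between Delta and Jagged ligands. In cranial neural crest the pathway is known for roles in the specification of the crest, in the choice between neuronal and glial fates and in the patterning of the facial skeleton by Jagged1.

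The promoters of Hey2, Hes5 and Lfng are shown because they hold the 7-base word GTGGGAA, the core recognised by RBPJ, or its reverse complement TTCCCAC. Each runs 5′ to 3′ on the gene's strand from 250 bases before the RefSeq transcription start to the first 10 transcribed bases, on build GRCm38.p6, with the word in capitals. Hey2 lies on the minus strand (chr10:30842774-30843033), and Hes5 (chr4:154960673-154960932) and Lfng (chr5:140607091-140607350) on the plus strand.
Hey2: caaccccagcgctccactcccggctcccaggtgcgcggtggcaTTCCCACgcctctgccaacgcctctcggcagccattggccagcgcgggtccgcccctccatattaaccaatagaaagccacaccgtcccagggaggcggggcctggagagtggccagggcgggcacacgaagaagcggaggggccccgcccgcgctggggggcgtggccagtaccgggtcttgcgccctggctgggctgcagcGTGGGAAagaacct
Hes5: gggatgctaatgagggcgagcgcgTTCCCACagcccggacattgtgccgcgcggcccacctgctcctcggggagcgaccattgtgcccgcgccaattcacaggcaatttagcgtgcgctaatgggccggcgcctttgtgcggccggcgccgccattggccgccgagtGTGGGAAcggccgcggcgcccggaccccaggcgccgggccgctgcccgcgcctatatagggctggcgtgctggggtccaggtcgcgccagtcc
Lfng: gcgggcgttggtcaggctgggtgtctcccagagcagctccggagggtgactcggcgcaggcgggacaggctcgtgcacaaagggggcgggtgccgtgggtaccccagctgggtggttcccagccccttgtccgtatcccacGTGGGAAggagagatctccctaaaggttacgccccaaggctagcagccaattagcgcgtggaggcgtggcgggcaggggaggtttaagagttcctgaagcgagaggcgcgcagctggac
In Hey2 the first match covers bases 207 to 201 before the start, and the second covers the last 4 bases before the start and the first 3 transcribed. The Hes5 matches lie 226 to 220 and 83 to 77 bases before the start, and the Lfng match 109 to 103. Both strands were searched over windows of 300 bases, 250 before to 50 after each start. Of the 33 genes, 25 had a RefSeq promoter entry, with 31 promoters in all, and 4 of these matched: the 3 shown and Hes7, with 1 match. The other 8 (Hes1, Hes2, Hes3, Hey1, Heyl, Mfng, Dtx3 and Dtx4) had no entry and were not searched. Over all 32851 RefSeq promoters 6.38% held the word and 0.256% held it at least 2 times. A match describes the letters only; no binding was measured here.

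Libraries held 18.8 M to 49.8 M counts (median 30.6 M). The 6 markers of crest mesenchyme (such as Twist1, Prrx1 and Pdgfra) were all at 1 CPM or more in every group, and summed to 1060 to 2820 CPM in every group from E10.5 on, against 197 to 270 CPM at E8.5. Ezh2 fell in Ezh2cKO cells by 1.41 ± 0.05 (SE) on the log2 scale, averaged over the 4 subpopulations, with 113 to 157 CPM in 12 Ezh2cKO libraries against 350 to 404 CPM in 11 WT libraries (adjusted p = 4.08e-24, edgeR). Hoxa2 was at 92.8 to 124 CPM in HoxA2OE Md and at 0.248 to 0.297 CPM in WT Md. In the libraries labelled Hoxa2TempMut, Hoxa2 counted 176 to 195 CPM against 268 to 270 CPM in Control; the ranges did not overlap, but the difference missed the threshold (log2 fold change -0.54 ± 0.21 SE, adjusted p = 0.503, edgeR), and which exons were deleted is not given, so this count is a weak check of that label. The 3 HoxA2OE libraries stood apart in their normalisation factors, at 0.514 (replicate 1), 0.775 and 0.765 against 0.889 to 1.16 in the other 44. In the share of mitochondrial genes only replicate 1 lay outside the range of the other 44, at 45.9% of its counts against at most 33.6%. Replicates 2 and 3 were at 28.5%, within the 28.2% to 33.6% of WT FNP at E10.5. All 3 HoxA2OE libraries, however, lay above every library of WT Md at E10.5, the group they were compared with. The part of this difference in the HoxA2OE results was not tested. The 2 WT Mx libraries of E10.5 carried 328 to 379 summed CPM of 12 neuron markers, against 20.3 to 28.9 in the other WT groups of that stage. In such bulk samples fewer cells of a type and less RNA per cell cannot be told apart.

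Levels were taken per length of transcript (CPM per kb of exonic sequence, mean of the 8 WT groups of E10.5 and E11.5). Notch2, Notch3, Adam10, Rbpj, Maml1, Maml2 and Maml3 lay above every ligand, while the receptors Notch1 and Notch4 lay below the ligand Jag1. Notch2 led at 28.0 CPM per kb, followed by Adam10 at 18.3, Rbpj at 17.6 and Maml1 at 13.9. Among receptors, Notch3 reached 10.9 and Notch1 3.02 CPM per kb, and Notch4, best known from endothelium, 0.167. Jag1 was the most expressed ligand at 3.51 CPM per kb, above Jag2 at 0.217, Dll1 at 0.115, Dll3 at 0.0696 and Dll4 at 0.0283. Among fringe genes Rfng reached 2.97 CPM per kb and Lfng 0.079. Of the target genes Hey1 (11.6), Hey2 (7.16) and Hes1 (4.9) were the highest. Over these 8 groups Hey2 ranged from 0.141 to 31.0 CPM per kb, Hey1 from 4.04 to 24 and Heyl from 0.207 to 7.56, while Rbpj ranged from 15.6 to 26.0. The E8.5 cells had another order, led by Dtx4 at 16.1 CPM per kb, Rbpj at 15.3, Maml1 at 14.6 and Adam10 at 14.1, with Hes3 at 12.8 and Jag1 at 11. Hes3 and Hes5 were at or near 0 after E8.5. The heat map of group means shows all members on the CPM scale.

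**Figure D1:**
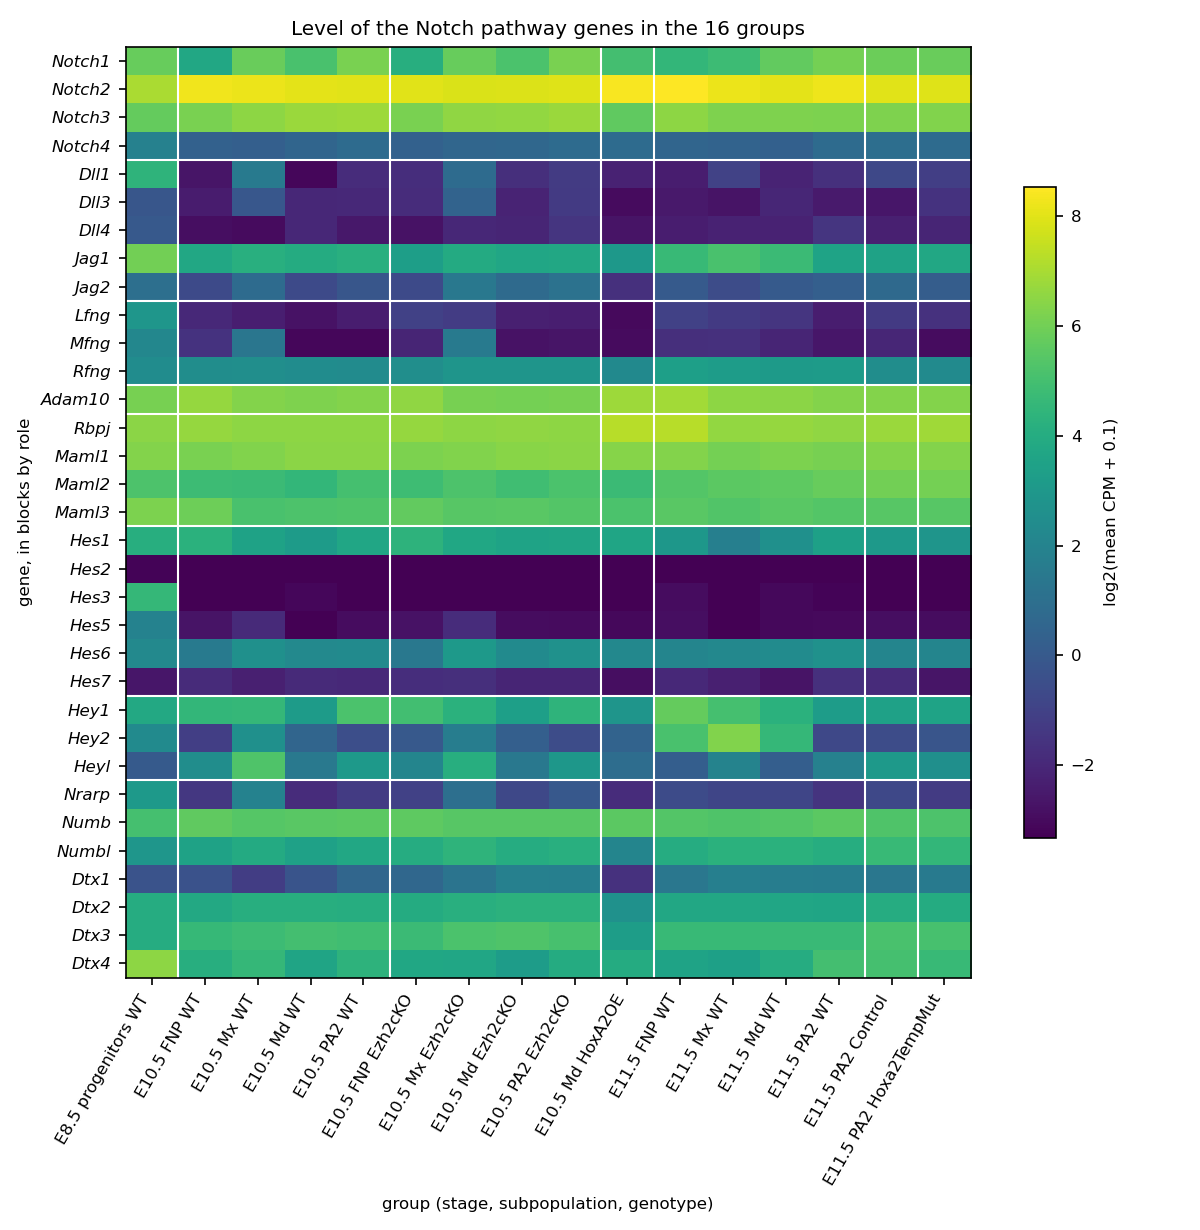
Mean CPM of each of the 33 Notch pathway genes (rows, ordered by role) in each of the 16 groups (columns), drawn as colour on a log2 scale with the pseudocount given on the colour bar. Rows such as Notch2, Adam10 and Rbpj are evenly high, Hes3 is high at E8.5 and at or near 0 in the other groups, and Hey2 is high in FNP, Mx and Md at E11.5.

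From E8.5 progenitors to the E10.5 subpopulations (averaged over the 4), all 5 ligands, Lfng, Mfng, Hes1, Hes3 and Hes5 fell. Receptors and Hey genes moved both ways: Notch1, Notch4 and Hey2 fell, while Notch2, Notch3, Hey1 and Heyl rose. The log2 fold change was -0.56 for Notch1, -1.44 for Notch4 and -2.07 for Hey2 (adjusted p = 1.07e-05, 4.63e-10 and 7.92e-13, edgeR). Libraries of Notch1 and Hey2 overlapped between the stages. Of 31 members tested, 17 were lower and 8 higher at E10.5 (adjusted p under 0.05, edgeR), where 36.3% of all genes tested were lower and 32.1% higher. The members' median log2 fold change was -0.47, against -0.03 over all genes. Hes3 and Hes5 reached at most 0.095 and 0.306 CPM in any library after E8.5 and passed the filter through the E8.5 group. Their lower calls thus followed from the filter, and both are counted in the 17 and in the median.

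Dll1, a Delta ligand, counted 24.7, 19.0 and 18.7 CPM in the 3 E8.5 libraries, and 0, 0.119 and 3.24 CPM as the lowest, median and highest of the 11 WT libraries at E10.5. The ranges did not overlap, and Dll1 fell by 7.04 ± 0.27 (SE) on the log2 scale (adjusted p = 1.31e-24). Lfng, the fringe gene best known from the segmentation clock, counted 4.70, 8.97 and 8.48 CPM at E8.5 and at most 0.198 CPM at E10.5. It fell by 6.31 ± 0.29 and its relative Mfng by 5.22 ± 0.44. Jag1, the ligand of highest level per length at both stages, counted 54.98, 74.9 and 62.9 CPM at E8.5 against 12.6, 16.0 and 19.0 CPM (lowest, median, highest) at E10.5, and fell by 2.0 ± 0.08. Dll4 fell by 3.84 ± 0.42, and Jag2 and Dll3 were also called lower, with libraries that overlapped between the stages. All 5 ligands were thus lower at E10.5.

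Hes3, a repressor of the neural plate and isthmus, had 3173 counts in the 3 E8.5 libraries (20.02, 28.8 and 21.2 CPM) and 1 count in the 11 E10.5 libraries. The ratio of the levels was 6740, with a 95% counting interval of 1210 to 266000. Hes5, a neural target of Notch, counted 1.87, 4.32 and 5.13 CPM at E8.5 and at most 0.292 CPM at E10.5, and fell by 6.83 ± 0.50 on the log2 scale. Nrarp fell by 4.11 ± 0.24, from 8.39 to 8.78 CPM at E8.5 to 0.102 to 3.72 CPM. Dtx4, which encodes a Deltex-family ubiquitin ligase, counted 83.6, 97.3 and 97.2 CPM at E8.5 and 11.46, 18.3 and 24.3 CPM (lowest, median, highest) at E10.5, a fall of 2.38 ± 0.08 (adjusted p = 1.13e-26). In all these genes every E8.5 library lay above every E10.5 library.

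In the other direction, Notch2 counted 131, 128 and 128 CPM at E8.5 and 253, 273 and 326 CPM (lowest, median, highest) at E10.5, a rise of 1.12 ± 0.06 on the log2 scale (adjusted p = 1.4e-20). Notch3 rose by 0.84 ± 0.14. Heyl, a Notch target known from vascular smooth muscle, rose by 3.19 ± 0.24, from 0.669 to 1.26 CPM to 1.96 to 42.0 CPM; the highest values were those of Mx. Numb and Numbl, which encode adaptors that antagonise Notch, rose by 0.50 ± 0.06 and 0.78 ± 0.14. Rbpj, Maml1, Rfng, Hes6, Dtx1 and Dtx2 did not pass the test. Every call of this comparison also passed without the Mx libraries.

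**Figure D2:**
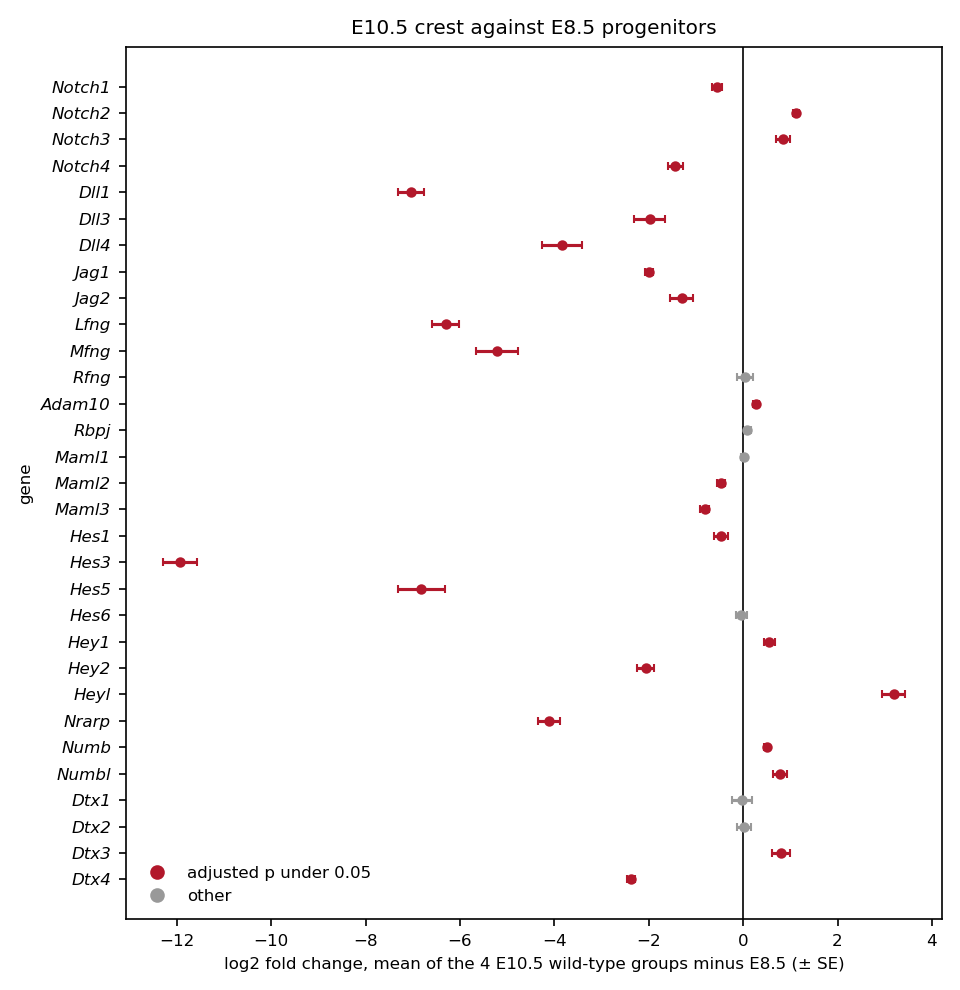
Fitted log2 fold change of each tested Notch pathway gene at E10.5 (4 WT subpopulations averaged) against E8.5, with bars of 1 SE. The value of Hes3 depends on the prior count of the fit, since it rests on 1 count at E10.5. The bar of Hes3 does not cover its counting error. Ligands, Lfng, Mfng, Nrarp and Dtx4 lie below 0, and Heyl and Notch2 above.

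The E8.5 libraries also held more RNA of marker genes of other tissues. Summed over 7 neural tube progenitor markers (Sox1, Sox2 and others, of which 7 were at 1 CPM or more) they had 384 to 473 CPM, against 67.1 to 161 CPM in the WT libraries of E10.5, where 2 or 3 of the 7 reached 1 CPM and Sox3 had no count in Mx, Md and PA2. Endothelial markers (10 of 10 at 1 CPM or more) summed to 164 to 177 CPM against 3.34 to 10.6 CPM, with 1 to 3 of 10 at 1 CPM and Sox17 at 0 in PA2. Epithelial markers (7 of 8 at 1 CPM or more) summed to 154 to 176 CPM against 2.52 to 15.3 CPM, and erythroid markers (5 of 7) to 607 to 981 CPM against 25.2 to 422 CPM. Hes3 and Hes5 are neural genes and Dll4 and Notch4 endothelial ones by their usual expression. Whether the marker RNA came from other cells or from the progenitors themselves was not tested, nor was its part in the change of the Notch genes.

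The 4 subpopulations of E10.5 differed in 20 of 31 members by an F test over the 4 WT groups (adjusted p under 0.05, edgeR), where 27.0% of all genes differed. Each subpopulation was then set against the mean of the other 3. These comparisons share libraries, so they are not independent of each other. FNP had the low Notch1 and Hes6 levels and the high Maml3 and Hes1 levels; Mx had high Dll1, Dll3, Mfng, Nrarp, Hey2 and Heyl; Md had low Hey1, Heyl and Dtx4; and PA2 had high Notch1, Hey1 and Dtx1.

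FNP differed from the rest in 13 members, 4 higher and 9 lower (27.6% of all genes were called in this comparison). Notch1 counted 67.8, 70.4 and 71.2 CPM in PA2, 60.5 and 53.9 in Mx, 38.8, 37.2 and 29.2 in Md, and 13.6, 13.5 and 13.5 in FNP. Every FNP library was thus below every other library, and Notch1 was lower by a log2 fold change of -1.94 ± 0.13 SE (adjusted p = 8.98e-16). Hes6, whose product counteracts Hes1, was at 2.41 to 3.24 CPM in FNP and 4.25 to 6.04 CPM elsewhere, without overlap (-0.85 ± 0.14). Maml3, a co-activator, was at 75.2, 57.5 and 50.7 CPM in FNP and 33.7 to 39.2 CPM elsewhere (0.73 ± 0.10). Hes1 was at 26.7, 14.9 and 15.1 CPM in FNP and 7.98 to 16.2 CPM in the other libraries, which overlapped (0.78 ± 0.16, adjusted p = 0.000129). Notch3 was lower in FNP (-0.54 ± 0.15), and Notch2 and Adam10 were higher. Hey2, at 0.237 to 0.512 CPM in FNP, was lower by -2.24 ± 0.32. Without the 2 Mx libraries the difference of Hey2 was -1.32 ± 0.36 and still called, whereas the lower calls of Heyl (-0.77 ± 0.20) and Nrarp (-1.14 ± 0.44) turned to 0.27 and 0.20 and were lost; Nrarp was also lost without either of FNP replicates 2 and 3 and without single libraries of the other subpopulations. Without Mx, Dll3 (-0.81, adjusted p = 0.381) and Jag1 (-0.25, adjusted p = 0.0549, against -0.30 with Mx) also lost their calls, with the direction kept. Erythroid markers summed to 25.2 to 50.9 CPM in FNP and 175 to 422 CPM in the other 3 (4 of 7 at 1 CPM or more and Hba-a1 at 0 in all 4), and their part was not tested.

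Mx differed from the rest in 11 members, 10 higher and 1 lower, against 7.28% of all genes. Dll1 counted 3.24 and 2.33 CPM in the 2 Mx libraries and at most 0.246 CPM in the other 9. It was higher by 5.53 ± 0.41 on the log2 scale (adjusted p = 7.54e-14). Mfng counted 2.29 and 2.58 CPM in Mx and at most 0.514 CPM elsewhere (5.80 ± 0.59), and Nrarp 3.72 and 3.71 CPM against at most 0.395 CPM (3.88 ± 0.31). These genes were near 0 counts in other groups, so that the fitted fold changes depend on few counts. Heyl counted 42.0 and 35.3 CPM in Mx and 1.96 to 9.004 CPM elsewhere, a difference of 2.96 ± 0.18 (adjusted p = 2.26e-16), and Hey2 7.15 and 4.97 CPM against 0.237 to 1.74 CPM (3.16 ± 0.22). Dll3 (2.74 ± 0.41), Notch1 (0.83 ± 0.12), Hes6 and Dtx4 (0.58 ± 0.10) were also higher. Jag2 was higher by 1.45 ± 0.31, a call lost without Mx replicate 2 (1.30, adjusted p = 0.0532). Dtx1 was the lower member, at 0.425 and 0.252 CPM against 0.554 to 1.52 CPM (-1.38 ± 0.31). Besides the neuron markers given above (11 of 12 at 1 CPM or more in Mx, 6 of 12 elsewhere, with Neurog2 at 0 in FNP, Md and PA2), markers of glia and early crest summed to 93.4 to 114 CPM in Mx and 7.53 to 29.3 CPM elsewhere (5 of 6 at 1 CPM or more in Mx, 3 or 4 elsewhere). Their part in the Mx differences was not tested.

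Md had 7 members called, all lower, against 6.81% of all genes. Hey1 counted 10.9, 8.05 and 7.75 CPM in Md and 21.8 to 38.6 CPM elsewhere, a difference of -1.60 ± 0.14 on the log2 scale (adjusted p = 5.48e-12). Dtx4 counted 12.8, 12.1 and 11.46 CPM in Md and 16.7 to 24.3 CPM elsewhere (-0.74 ± 0.10). Heyl, at 3.69, 2.23 and 1.96 CPM, was the lowest of the 4 subpopulations (-2.20 ± 0.23). It was at -1.38 ± 0.24 without Mx and still called. Hes1 was lower by -0.66 ± 0.17, a call lost without Md replicate 1 (-0.59, adjusted p = 0.0938). Maml2 (-0.35 ± 0.10) lost its call without any of 5 single libraries. Nrarp (-1.90 ± 0.49) was lost without Md replicate 1 (adjusted p = 0.0796). Dll1 had 1 count over the 3 Md libraries, a ratio of 64.2 in favour of the others (95% counting interval 11.4 to 2550). Dll1 and Nrarp were not called without Mx.

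PA2 differed in 6 members, 4 of them higher (5.59% of all genes) and 2 lower (4.94%). Notch1 was at 67.8 to 71.2 CPM, above all libraries of the other 3 (1.21 ± 0.11 on the log2 scale, adjusted p = 8.85e-12). Hey1 counted 34.0, 38.6 and 36.7 CPM in PA2 and 7.75 to 24.7 CPM elsewhere (1.11 ± 0.12). Dtx1 counted 1.49, 1.22 and 1.52 CPM and 0.252 to 0.891 CPM elsewhere (1.31 ± 0.23). Maml2 (0.33 ± 0.10) was not called without PA2 replicate 1 (0.23) or Mx replicate 2 (0.31). Hey2 was called lower (-1.19 ± 0.32) with overlapping libraries, and it lost the call without Mx (-0.15, adjusted p = 0.871) and without PA2 replicate 1 or 3. Notch2 (-0.17 ± 0.06) was lost in most of the alternatives. So FNP and PA2, at the ends of the Notch1 order, held 13.5 to 13.6 and 67.8 to 71.2 CPM, while Notch2 spanned only 253 to 326 CPM over all 11 libraries.

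At E11.5 the 4 subpopulations differed in 15 of 31 members (29.4% of all genes), and Hey2 separated them most. Hey2 counted 80.1, 85.2 and 71.9 CPM in Mx, 34.1, 31.1 and 38.0 in FNP, 20.9, 21.9 and 28.2 in Md, and 0.342, 0.515 and 0.643 in PA2. The 4 groups did not overlap in this order. Against the mean of the other 3 the log2 differences were 3.41 ± 0.16 SE in Mx, 1.81 ± 0.16 in FNP, 1.09 ± 0.17 in Md and -6.32 ± 0.27 in PA2 (adjusted p = 1.86e-22 for PA2). Hey1 counted 9.32, 10.4 and 7.84 CPM in PA2, 16.9, 19.1 and 20.2 in Md, 34.9, 34.8 and 27.5 in Mx, and 49.2, 45.4 and 63.8 in FNP, again without overlap between groups. The log2 difference was 1.57 ± 0.11 in FNP and -1.79 ± 0.13 in PA2. In Md the lower call of Hey1 (-0.42 ± 0.12) was lost without Md replicate 1 (-0.35, adjusted p = 0.222), without Md replicate 2 or without FNP replicate 3. Both genes encode Hairy-related repressors, and both were lowest in PA2.

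PA2 had 13 members called, 7 higher and 6 lower (17.7% of all genes). Jag1 counted 11.3, 12.2 and 12.0 CPM in PA2 and 23.7 to 36.9 CPM in the other 3, a difference of -1.28 ± 0.10 on the log2 scale (adjusted p = 5.65e-14). Dtx4 counted 31.0, 31.1 and 32.9 CPM in PA2 and 8.96 to 17.7 CPM elsewhere (1.34 ± 0.09). Notch1 was at 69.2, 66.0 and 63.8 CPM in PA2, above the 20.2 to 56.0 CPM of the others (1.06 ± 0.10). Hes1 was also higher in PA2 (11.1, 11.03 and 9.86 CPM against 2.97 to 8.19, 0.99 ± 0.16), and Heyl was higher by 1.11 ± 0.20 with overlapping libraries. Hes6 was higher by 0.42 ± 0.12, a call lost without PA2 replicate 1 (0.30, adjusted p = 0.174). Neuron markers summed to 144 to 178 CPM in PA2 and 58.2 to 106 CPM in the other 3 (6 of 12 at 1 CPM or more in PA2, 6 or 7 elsewhere, Neurog2 at 0 in PA2 and Md). Endothelial markers summed to 33.9 to 36.3 CPM in PA2 against 11.3 to 30.8 CPM (5 of 10 at 1 CPM or more in PA2, 4 to 6 elsewhere, none at 0). Their part was not tested.

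FNP had 10 members called (6 higher, 4 lower, 24.6% of all genes), Mx 8 (5 higher, 3 lower, 11.3%) and Md 6 (3 higher, 3 lower, 7.1%). In FNP Rbpj, the DNA-binding partner of the receptors, counted 145, 173 and 136 CPM against 78.4 to 114 CPM elsewhere (0.65 ± 0.09 on the log2 scale, adjusted p = 3.05e-07). Adam10 (0.45 ± 0.07) and Notch2 (0.37 ± 0.05) were also higher in FNP, without overlap, and Notch1 was lower (20.2, 24.9 and 23.0 CPM against 26.5 to 69.2, -1.01 ± 0.12). Heyl was lower in FNP (-1.17 ± 0.24) and in Md (-1.22 ± 0.24), and higher in Mx (1.28 ± 0.20). Mx held the highest Jag1, at 33.3, 34.1 and 36.9 CPM (0.79 ± 0.09), and the lowest Hes1, at 2.97, 3.37 and 3.68 CPM against 5.84 to 11.1 CPM (-1.24 ± 0.18). In Md Notch1 was higher by 0.54 ± 0.11 and Notch2 lower by -0.25 ± 0.05, the latter a call lost without Md replicate 2 (-0.19, adjusted p = 0.0553). Jag1 was called higher in Md (0.28 ± 0.09) and lost this call without Md replicate 3 (0.16, adjusted p = 0.567) or any of 4 libraries of FNP and Mx. Notch1 thus was lowest in FNP and highest in PA2 at both stages.

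From E10.5 to E11.5, averaged over the 4 WT subpopulations, 12 members rose and 8 fell, where 33.7% of all genes rose and 30.1% fell. Hey2 rose by 3.51 ± 0.17 (SE) on the log2 scale, Dtx1 by 2.08 ± 0.13, Maml2 by 0.80 ± 0.06, Rfng by 0.77 ± 0.11 and Jag1 by 0.52 ± 0.06. Heyl fell by 2.06 ± 0.13 and Hes1 by 0.98 ± 0.10 (adjusted p = 3.52e-17 and 6.63e-11, edgeR). The changes were not alike in all 4: in 18 of 31 members the change differed in size or direction among subpopulations by an F test of the interaction, against 15.6% of all genes. Without the Mx libraries of E10.5 this count was 10, over 3 subpopulations. In separate tests, 19 members were called in FNP (42.6% of all genes), 17 in Mx (38.3%), 16 in Md (38.3%) and 10 in PA2 (39.4%).

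Hey2 in FNP went from 0.237, 0.512 and 0.326 CPM to 34.1, 31.1 and 38.0 CPM, a log2 change of 6.55 ± 0.30. It rose by 4.13 ± 0.25 in Md and by 3.70 ± 0.26 in Mx. In PA2 it counted 0.362, 1.09 and 0.393 CPM at E10.5 and 0.342 to 0.643 CPM at E11.5, a change of -0.33 ± 0.40 that did not pass the test (adjusted p = 0.541). Hey2 thus increased in 3 subpopulations, and the interaction test gave an adjusted p of 1.4e-11. Hey1 rose by 1.21 ± 0.14 in FNP, 1.07 ± 0.15 in Md and 0.45 ± 0.16 in Mx, and fell by 1.99 ± 0.15 in PA2, from 34.0, 38.6 and 36.7 CPM to 9.32, 10.4 and 7.84 CPM. Jag1 moved in the same directions: it rose by 0.89 ± 0.11 in FNP, 0.98 ± 0.13 in Mx and 0.78 ± 0.11 in Md, and fell by 0.58 ± 0.11 in PA2. The interaction p values, adjusted over all genes, were 2.74e-15 for Hey1 and 4.77e-10 for Jag1.

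Dtx4 fell in FNP (-0.58 ± 0.12) and Mx (-1.20 ± 0.13) and rose in Md (0.43 ± 0.12) and PA2 (0.67 ± 0.11), so that PA2 held the highest level at E11.5. Dtx1 rose in all 4, by 1.82 ± 0.25, 3.27 ± 0.31, 2.11 ± 0.26 and 1.11 ± 0.24 in FNP, Mx, Md and PA2, from at most 1.52 CPM to at least 1.89 CPM. Heyl fell in all 4, by 2.36 ± 0.27, 3.32 ± 0.25, 1.33 ± 0.29 and 1.23 ± 0.24. Of the members that were higher in Mx at E10.5, Hey2 rose there, as given above, while others fell in Mx: Mfng by 3.59 ± 0.60, Nrarp by 3.02 ± 0.37, Dll1 by 2.79 ± 0.39, Jag2 by 1.53 ± 0.38 and Notch1 by 1.02 ± 0.15. Hes1 also fell in Mx, by 1.77 ± 0.23. Over the same interval the neuron marker sum in Mx went from 328 to 379 CPM to 88.5 to 106 CPM (from 11 to 6 of 12 at 1 CPM or more) and the glial sum from 93.4 to 114 CPM to 17.0 to 23.0 CPM (5 to 4 of 6). Without the Mx libraries the interaction calls of Dll1, Dll3, Dtx1, Hes6, Jag2, Mfng, Nrarp and Rbpj were lost, while the other 10 remained. Among the averaged changes, Dll3, Dll4 and Hey1 lost their calls without Mx, and Notch1, Jag2, Hes6 and Nrarp gained one. Dtx4, one of the 8 that fell on average (-0.17, adjusted p = 0.0114), was called higher without Mx (0.19, adjusted p = 0.0104). The averaged call of Hey1 was lost without any of 11 single libraries.

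**Figure D3:**
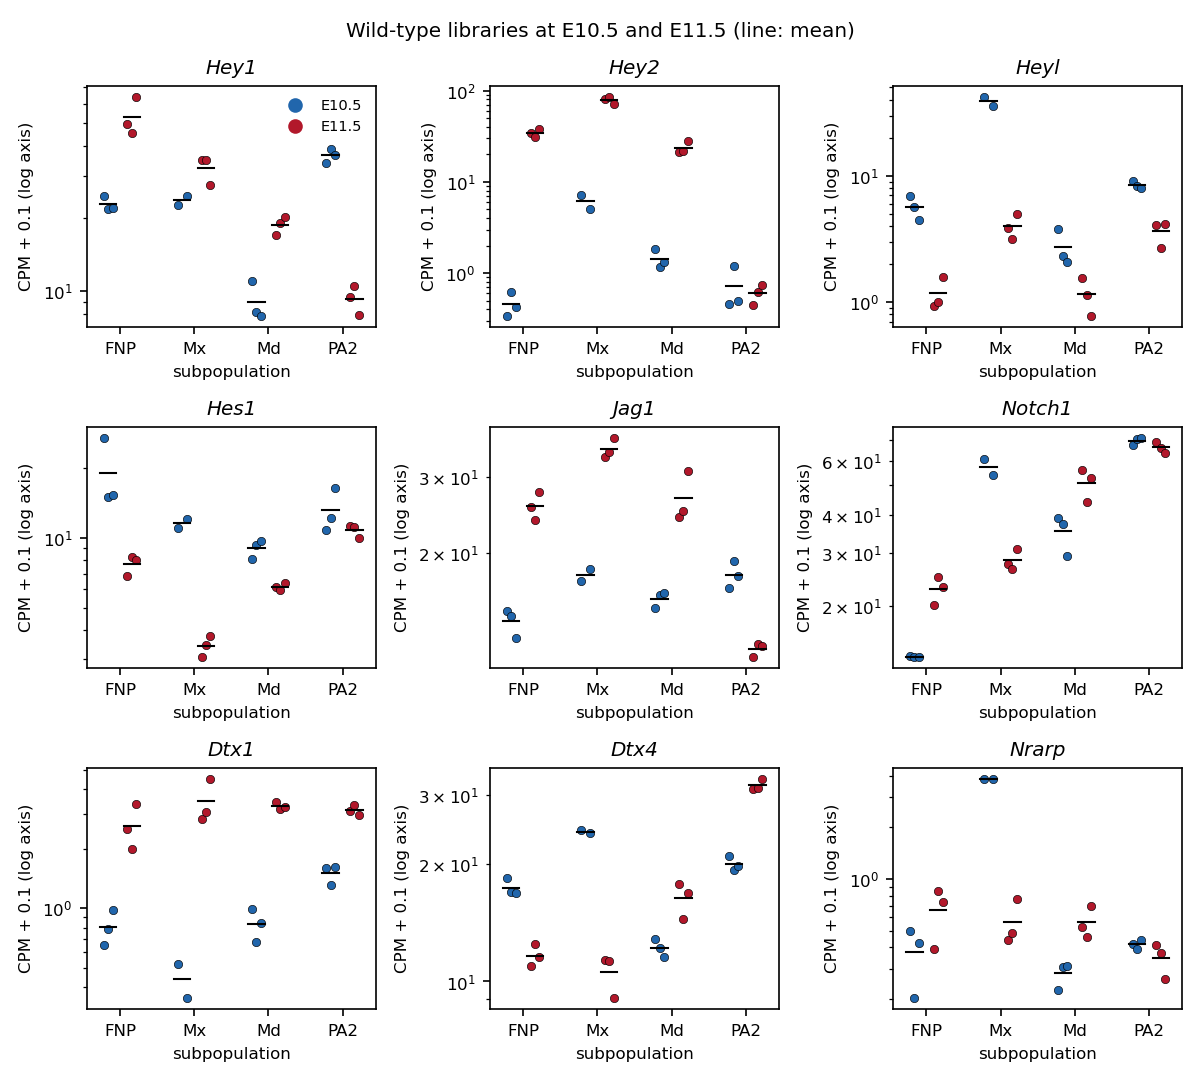
CPM plus 0.1 (log axis) of single libraries (points) and group means (lines) of 9 Notch pathway genes in the 4 WT subpopulations at E10.5 (blue) and E11.5 (red). Hey2 reaches 20.9 to 85.2 CPM at E11.5 in FNP, Mx and Md and 0.342 to 0.643 CPM in PA2, where Hey1 and Jag1 are lower than at E10.5.

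Loss of Ezh2, the methyltransferase of the Polycomb repressive complex 2, was compared with WT in each subpopulation at E10.5. Dtx1 rose and Dtx4 fell in all 4, Jag2 rose in Md and PA2, and Hey1 fell in PA2. Averaged over the 4 subpopulations, 7 members were higher (Dll1, Jag2, Lfng, Rfng, Maml2, Numbl, Dtx1) and 5 lower (Notch2, Jag1, Adam10, Heyl, Dtx4) of 31, where 16.1% of all genes were higher and 14.7% lower. The separate tests called 6 members in FNP (6.8% of all genes), 6 in Mx (10.3%), 5 in Md (8.87%) and 6 in PA2 (9.17%).

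Dtx1, which encodes the founding Deltex ubiquitin ligase and a Notch target in lymphocytes, counted 3.97, 3.37 and 3.03 CPM in Ezh2cKO Md and 0.891, 0.578 and 0.743 CPM in WT Md, a log2 change of 2.23 ± 0.26 SE (adjusted p = 3.08e-08). It counted 2.27, 1.84 and 2.71 CPM in Ezh2cKO Mx against 0.425 and 0.252 CPM (2.71 ± 0.32), and 3.49, 3.62 and 3.12 CPM in PA2 against 1.22 to 1.52 CPM (1.27 ± 0.24). In FNP it counted 1.60, 1.59 and 1.19 CPM against 0.554 to 0.879 CPM (1.04 ± 0.27), a call lost without WT replicate 1 (adjusted p = 0.0699) or Ezh2cKO replicate 1 (0.0515). Within each subpopulation every Ezh2cKO library lay above every WT library. The averaged change was 1.81 ± 0.14 (adjusted p = 4.65e-14), and the size differed among subpopulations (interaction adjusted p = 0.0304), a call lost without the WT Mx libraries.

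Dtx4 went the other way. In Mx it counted 13.5, 13.7 and 11.7 CPM in Ezh2cKO and 24.3 and 23.9 CPM in WT, a log2 change of -0.89 ± 0.13 (adjusted p = 2.69e-06). The changes were -0.39 ± 0.12 in FNP, -0.38 ± 0.12 in Md and -0.35 ± 0.12 in PA2, with -0.50 ± 0.06 on average. Each of these 3 smaller calls was lost without single libraries: in FNP without WT replicate 1 or 2 or Ezh2cKO replicate 1, in Md without any of the 6, and in PA2 without any but Ezh2cKO replicate 1. Jag2 counted 1.94, 1.51 and 1.44 CPM in Ezh2cKO Md against 0.934, 0.536 and 0.106 CPM (1.57 ± 0.38), and 1.78, 2.13 and 2.36 CPM in Ezh2cKO PA2 against 1.13, 0.545 and 0.688 CPM (1.41 ± 0.35). These calls were lost without WT Md replicate 3 (adjusted p = 0.0623) and without WT PA2 replicate 2 (0.0633). The averaged change of Jag2 was 0.90 ± 0.19 and that of Jag1, its relative, -0.33 ± 0.06, with Jag1 at 9.20, 10.99 and 9.39 CPM in Ezh2cKO FNP against 12.6 to 14.6 CPM (-0.48 ± 0.12). Jag1 in PA2 (-0.37 ± 0.11) lost its call without any of 4 libraries: WT replicates 2 and 3 and Ezh2cKO replicates 1 and 2.

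Hey1 counted 19.3, 17.4 and 26.1 CPM in Ezh2cKO PA2 and 34.0, 38.6 and 36.7 CPM in WT PA2, a fall of 0.80 ± 0.15 on the log2 scale (adjusted p = 0.000139). In FNP it counted 37.5, 30.8 and 24.3 CPM against 24.6, 21.8 and 22.0 CPM, which did not pass the test. The effect on Hey1 differed among the 4 subpopulations (interaction adjusted p = 0.000446), and this call was the one of 4 that remained without WT Mx and without each single library. The other 3 were Hey2 (0.0288), Nrarp (0.0225) and Dtx1, where 1.63% of all genes differed. The call of Hey2 was lost without any of 6 single libraries, that of Nrarp without any of 4 and that of Dtx1 without any of 8. Hey2 was higher in Ezh2cKO FNP (0.784, 0.940 and 0.939 CPM against 0.237 to 0.512, 1.28 ± 0.39) and lower in Mx (3.26, 3.06 and 3.20 CPM against 7.15 and 4.97, -0.94 ± 0.25). The Mx call was lost without WT Mx replicate 1 (-0.65, adjusted p = 0.297). Heyl fell in Mx by 1.17 ± 0.23, from 42.0 and 35.3 CPM to 15.3 to 19.6 CPM, and its averaged change of -0.46 ± 0.12 was -0.19 without WT Mx (adjusted p = 0.415). Notch2 was lower in FNP (-0.28 ± 0.07) and Mx (-0.33 ± 0.07), calls lost without Ezh2cKO FNP replicate 1 (-0.23, adjusted p = 0.0599) and without WT Mx replicate 1 (-0.25, adjusted p = 0.135). Numbl was higher on average by 0.47 ± 0.09; its calls in FNP (0.54 ± 0.17) and Md (0.57 ± 0.17) were each lost without single libraries. Maml2 was higher on average by 0.27 ± 0.06, and its calls in Mx and Md were lost without single libraries too.

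Neuron markers summed to 53.0 to 56.6 CPM in Ezh2cKO FNP, 47.2 to 51.9 in Md and 49.5 to 60.3 in PA2, against 20.3 to 28.9 CPM in the matching WT libraries (7 or 8 of 12 at 1 CPM or more against 6, with Neurog2 at 0 in these WT groups and Neurog1 at 0 in Ezh2cKO Md). In Mx the sums were 239 to 630 CPM against 328 to 379 CPM (11 of 12 at 1 CPM or more in both). Markers of glia and early crest summed to 41.3 to 68.4 CPM in Ezh2cKO Mx and 93.4 to 114 CPM in WT Mx (5 of 6 at 1 CPM or more and none at 0 in both), beside the lower Heyl and Hey2 there. Epithelial markers summed to 12.2 CPM in the highest library of Ezh2cKO PA2 and 4.91 CPM in that of WT PA2 (3 of 8 at 1 CPM or more in both, none at 0). Hoxa2 itself, a Polycomb target, counted 1.24 to 8.21 CPM in Ezh2cKO FNP, Mx and Md against 0 to 0.297 CPM. The part of the cells that these markers stand for in the differences of Notch genes was not tested, nor was the source of the marker RNA. Dll1, Lfng and Rfng were called on average with adjusted p = 0.0163, 0.0455 and 0.0213; Rfng lost its call without any of 3 single libraries (WT Mx replicate 1, WT PA2 replicate 1 or Ezh2cKO PA2 replicate 3) and with the GC correction described below for HoxA2OE. Dll1 lost its call without Ezh2cKO Md replicate 1. The call of Lfng was lost without any of 16 of the 23 libraries, without both WT Mx libraries and with the GC correction.

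**Figure D4:**
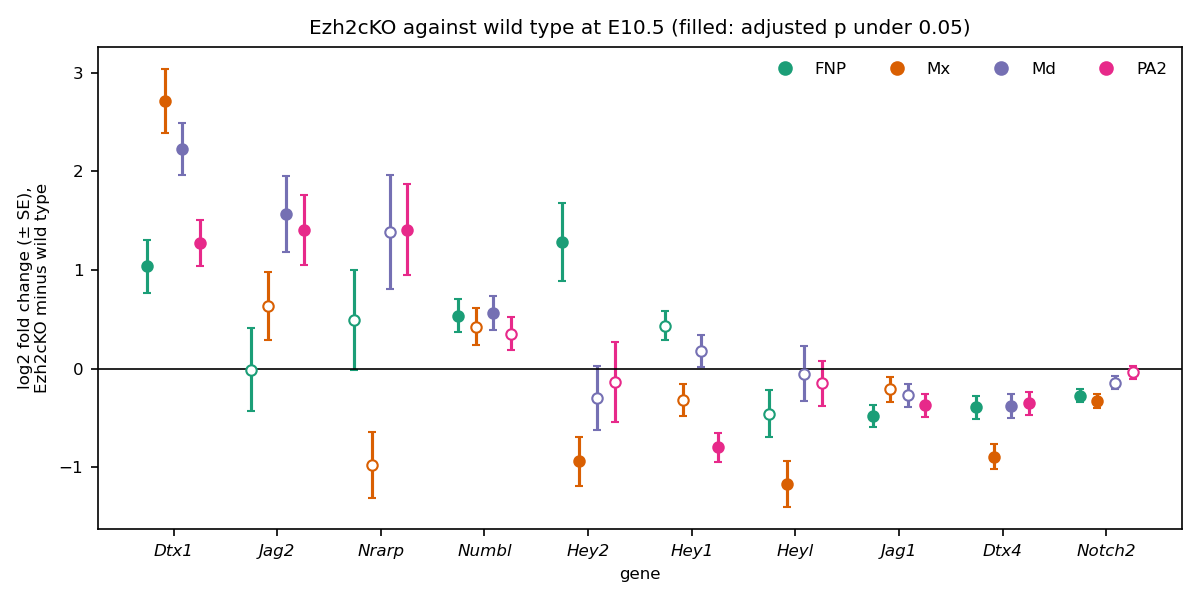
Log2 fold change (Ezh2cKO minus WT, y axis, bars of 1 SE) of 10 Notch pathway genes in FNP, Mx, Md and PA2 at E10.5 (colours); filled points have an adjusted p under 0.05. Dtx1 lies between 1.04 and 2.71 in all 4, Dtx4 is below 0 in all 4, and Hey1 is at -0.80 in PA2.

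In Md cells overexpressing Hoxa2, which normally patterns PA2 and is near 0 in WT Md, 6 members were higher and 8 lower than in WT Md, where 27.1% of all genes were higher and 27.8% lower. Jag1 counted 7.15, 8.80 and 7.51 CPM in HoxA2OE and 14.8, 15.8 and 16.0 CPM in WT Md, a fall of 0.99 ± 0.12 (SE) on the log2 scale (adjusted p = 5.04e-09, edgeR). Dtx3 counted 2.93, 11.9 and 13.5 CPM against 33.5, 36.5 and 25.9 CPM (-1.73 ± 0.25), and Dtx2 2.81, 7.53 and 8.53 CPM against 16.8 to 18.3 CPM (-1.43 ± 0.21). Numbl (2.40, 5.35 and 4.38 CPM against 10.3 to 11.7, -1.41 ± 0.18) and Notch3 (27.1, 61.1 and 62.8 CPM against 89.8 to 119, -1.09 ± 0.17) were lower as well. In each of these 5 genes no library of the 2 groups overlapped, and replicate 1 of HoxA2OE was the lowest. Rbpj (173, 143 and 140 CPM against 89.1 to 97.5, 0.71 ± 0.12), Adam10 (127, 106 and 103 CPM against 72.9 to 77.6, 0.59 ± 0.09) and Notch2 (372, 333 and 325 CPM against 254 to 273, 0.37 ± 0.07) were higher. Hes1 was called higher (0.49 ± 0.20) and lost this call without HoxA2OE replicate 1 (0.16, adjusted p = 0.524) or WT replicate 1 or 2. Dll1 rested on 13 counts against 1, a level ratio of 8.87 (counting interval at 95% from 1.33 to 377), and Dll3 on 3 counts against 10. Erythroid markers summed to 10.4 to 13.5 CPM in HoxA2OE and 219 to 284 CPM in WT Md (4 of 7 at 1 CPM or more and Hba-a1 at 0 in both), and crest mesenchyme markers to 2060 to 2760 CPM against 1560 to 1600 CPM (6 of 6 in both). Endothelial markers summed to 11.7 to 13.4 CPM against 6.6 to 6.66 CPM (4 of 10 at 1 CPM or more against 2, none at 0). Their part in the differences was not tested.

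The size of the change followed base composition in this comparison. With all tested genes in 5 equal bins by the GC content of their transcripts, from lowest to highest, the median log2 fold change was 0.50, 0.22, -0.02, -0.29 and -0.63 (r = -0.31 across genes, which are not independent replicates). After a correction of the counts for GC content, chosen after seeing the data, 18 members were called, 11 higher and 7 lower, of which 12 were also called without it, while 47.1% of all genes were called. Jag1 was nearly as low as before (-1.04). Dtx3 (-1.10), Dtx2 (-0.80), Numbl (-0.76) and Notch3 (-0.31) remained lower with smaller differences, and Rbpj (0.26) and Adam10 (0.19) remained higher with smaller ones. Hes1 (1.16) and Notch2 (0.83) grew, and Notch1 (0.44), Hes6 (0.96), Rfng (0.64), Maml1 (0.37) and Notch4 (1.21) were called higher. Dll3 and Jag2 were no longer called. Smaller trends were seen in other comparisons. From the lowest to the highest bin the median went from -0.08 to 0.08 in averaged Ezh2cKO (r = 0.16). In Control against WT PA2 of E11.5 it went from 0.15 to -0.11 (r = -0.16). With the same correction the averaged Ezh2cKO calls went from 12 to 11, with Lfng and Rfng lost and Notch3 gained. How much of these base composition trends arose in the libraries rather than in the cells was not tested.

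**Figure D5:**
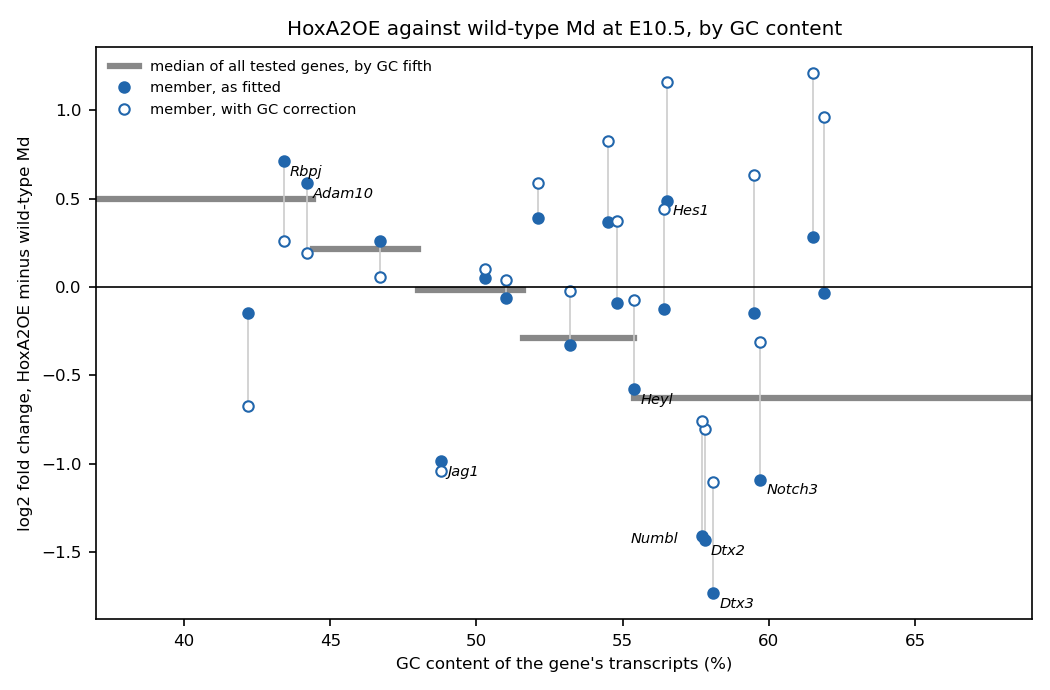
Log2 fold change (HoxA2OE minus WT Md, y axis) of the Notch pathway genes with at least 1 CPM in either group over the GC content of their transcripts in percent (x axis); filled points are as fitted, open points after the GC correction, and grey bars give the median of all tested genes in each of 5 equal bins of GC content. Jag1 lies at -0.99 and -1.04, below the bar of its bin, while Dtx3, Dtx2, Numbl and Notch3 move up with the correction.

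In PA2 at E11.5, no member passed the threshold between the libraries labelled Hoxa2TempMut and their Control (0 of 31 by edgeR, where 0.623% of all genes were called). At an unadjusted p under 0.05 there were 3 (Dll3, Jag1 and Dtx4), where 6.05% of all genes were at that level, and DESeq2 called 1, Dtx4. Dtx4 counted 27.4, 22.7 and 24.7 CPM in Hoxa2TempMut and 32.9, 32.7 and 32.6 CPM in Control, without overlap, a log2 difference of -0.39 ± 0.11 (adjusted p = 0.108, edgeR). It was called by DESeq2 (adjusted p = 0.0162), by edgeR on the 2 groups alone (0.0185) and by edgeR without the HoxA2OE libraries (0.032). Jag1 counted 13.8, 13.0 and 13.9 CPM against 11.6, 11.2 and 11.6 CPM. Neuron markers summed to 65.9 to 70.0 CPM in Hoxa2TempMut and 106 to 130 CPM in Control (7 of 12 at 1 CPM or more in both, Neurog1 at 0 in both).

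The Control of this comparison differed from WT PA2 of the same stage in 8 members, 4 higher and 4 lower, and in 22.1% of all genes. Heyl counted 7.63, 7.50 and 9.29 CPM in Control and 3.98, 2.61 and 4.08 CPM in WT, a log2 difference of 1.20 ± 0.23 (adjusted p = 0.000188). Numbl was higher (0.60 ± 0.17), and Rfng (-0.71 ± 0.20), Hes6 (-0.58 ± 0.15), Numb (-0.28 ± 0.07) and Notch2 (-0.22 ± 0.07) were lower. The calls of Rfng, Hes6, Maml1 and Notch2 were each lost without at least 1 single library. With the GC correction Hes6 (-0.40, adjusted p = 0.0918, edgeR) and Notch2 (-0.18, adjusted p = 0.169, edgeR) also lost their calls. Hey2, low in PA2 of WT, was at 0.510 to 0.691 CPM in Control and 0.416 to 1.04 CPM in Hoxa2TempMut. Genotype, strain and preparation of Control and WT cannot be told apart here.

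Of 26 other genes of the pathway (glycosylation, cleavage, ligand ubiquitination, atypical ligands and nuclear cofactors), all 26 were tested. From E8.5 to E10.5, 11 rose and 9 fell (32.1% and 36.3% of all genes), among them Dlk1, an atypical ligand without a DSL domain (3.70 ± 0.20 on the log2 scale, adjusted p = 7.63e-20), Neurl1b, a ubiquitin ligase of ligands (2.81 ± 0.28), the convertase Furin (1.04 ± 0.16) and the gamma-secretase subunit Psen2 (-1.08 ± 0.23). At E10.5, FNP had 8 calls (27.6% of all genes), Mx 2 (7.28%), Md 1 (6.81%) and PA2 3 higher and 1 lower (5.59% and 4.94%). At E11.5 there were 7 in FNP (24.6%), 3 in PA2 (17.7%), 2 in Mx (11.3%) and 2 in Md (7.1%). Dlk1 was the gene that set the subpopulations apart: at E10.5 it was lower in FNP (-3.47 ± 0.19) and Mx (-0.80 ± 0.19) and higher in Md (3.14 ± 0.14) and PA2 (1.12 ± 0.15), and at E11.5 lower in FNP (-2.12 ± 0.17) and Mx (-1.35 ± 0.17) and higher in Md (2.60 ± 0.14) and PA2 (0.88 ± 0.14). From E10.5 to E11.5, 14 rose and 4 fell (33.7% and 30.1% of all genes), with Dner, another atypical ligand, at 2.72 ± 0.29 on average and 5.31 ± 0.68 in PA2.

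In Ezh2cKO cells 6 of these 26 were higher and 3 lower on average (16.1% and 14.7% of all genes), and Neurl1b was higher by 0.87 ± 0.13 (adjusted p = 1.37e-06), with calls in FNP (1.15 ± 0.25), Mx (0.93 ± 0.28) and PA2 (0.86 ± 0.25). In Md none passed by edgeR or DESeq2, with 5 at an unadjusted p under 0.05. In HoxA2OE Md 8 were higher and 10 lower (27.1% and 27.8% of all genes), among them Dlk1 (-1.43 ± 0.18) and Mib2 (-1.04 ± 0.18). Between Hoxa2TempMut and Control none passed by edgeR or DESeq2, with 2 at an unadjusted p under 0.05 (Poglut1 and Dlk1).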

How the data were processed

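The authors deposited 1 table of raw counts per gene for 47 libraries; all its values are whole numbers, and 22 column names appear 2 times with identical values and were used once. Per the labels' protocols, RNA of sorted cells was made into unstranded total-RNA libraries and read in single 50-base reads; per the submitters' processing notes, reads were demultiplexed with bcl2fastq 2.17 on build GRCm38 (mm10). The aligner, counter and annotation were not given in the sources used here. As counting was not stated to use strand, reads of the 12 members that overlap another gene (Dll1, Dll4, Notch1, Notch3, Notch4, Hes5, Hes7, Maml1, Maml2, Maml3, Dtx3 and Numbl) cannot be told apart from those of that gene.

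The counts were fitted with edgeR 4.0.16 (R 4.3.3): group means of all 16 groups, TMM scaling, filterByExpr (20560 of 38215 genes), the quasi-likelihood F test with 31 residual degrees of freedom, and Benjamini-Hochberg adjustment over all tested genes within each comparison; a gene was called at an adjusted p under 0.05. CPM used TMM-scaled totals, and CPM per kb the exonic length given in the deposited count table. GC content was that of the gene's transcripts in GENCODE M21. Fold changes are log2 with SE. Each SE was derived from the test, as the absolute log2 fold change over the square root of F. Where counts were near 0, as for Hes3, this SE does not cover the counting error. Tables and figures used Python 3.11.15, pandas 2.3.3, numpy 2.4.6, scipy 1.17.1 and matplotlib 3.10.9. Counts were simulated for HoxA2OE against WT Md alone, with changes planted only in genes above 1 CPM. There the test recovered 91 of 100 genes changed by 1 on the log2 scale and 100 of 100 changed by 2. The simulation held no GC trend and no outlying library, and it does not cover genes with few counts or the other comparisons. Counting intervals cover counting error only. Counts of same-group replicates differed by more than sampling noise (chi-square per degree of freedom 3.53 to 331). The highest values, 316 and 331, were those of HoxA2OE replicate 1 against replicates 2 and 3, which gave 12.2 against each other. Replicate 1 of E8.5 gave 118 and 128 against replicates 2 and 3, which gave 6.67 against each other. In WT FNP, replicate 3 of E11.5 gave 71.3 and 65.3 against the others, and replicate 1 of E10.5 gave 42.3 and 44.4.

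In each comparison the members named were those called whose higher mean reached 1 CPM, up to 8 by size of change; other members, and genes with few counts, are named where a count or an earlier value turned on them, after their values were seen. The members and the gene lists were chosen with earlier results of these data known. Alternatives were DESeq2 1.42.0, RLE scaling, no filter, only the groups compared, a replicate block and each library left out. A GC correction, a fit without WT Mx of E10.5 and a fit without HoxA2OE were added after seeing the data. Replicate numbers do not pair the samples in the labels; they were used as a block as an alternative only.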

Additional observations from a re-analysis of the deposited data

Results flagged for a closer look

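In 18 Notch pathway genes the change from E10.5 to E11.5 differed among the 4 WT subpopulations by the edgeR F test of the interaction. The adjusted p was 2.74e-15 for Hey1, 1.61e-11 for Dtx4, 1.4e-11 for Hey2, 4.77e-10 for Jag1 and 2.6e-08 for Notch1. It was 5.36e-07 for Nrarp, 2.91e-05 for Heyl, 0.000235 for Dll1, 0.000455 for Maml1, 0.000488 for Hes1 and 0.000834 for Dtx1. It was 0.00114 for Mfng, 0.00217 for Jag2, 0.0038 for Dll3, 0.00748 for Maml3, 0.00809 for Notch3, 0.0188 for Hes6 and 0.042 for Rbpj. Without the 2 WT Mx libraries of E10.5, 10 of these 18 calls remained. With single libraries left out, the call of Rbpj was lost in 14 of 23 cases, that of Hes6 in 4 and that of Maml3 in 1 (E10.5 FNP replicate 1).

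The effect of Ezh2cKO differed among the 4 subpopulations of E10.5 in 4 genes, with an adjusted p of 0.000446 for Hey1, 0.0225 for Nrarp, 0.0288 for Hey2 and 0.0304 for Dtx1. Nrarp was higher in Ezh2cKO PA2 (0.910, 0.723 and 0.907 CPM against 0.294 to 0.344) and counted 1.81, 2.80 and 1.09 CPM against 3.72 and 3.71 CPM in Mx, where it missed the threshold (adjusted p = 0.0532). Of the 4 calls, that of Hey1 remained without WT Mx and without each single library; that of Dtx1 was lost without any of 8 single libraries, that of Hey2 without any of 6 and that of Nrarp without any of 4.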

How the results depend on the processing

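The numbers of members called under DESeq2, RLE scaling, no filter, only the groups compared, the replicate block and the added fits lay within 1.5 times those of the report, with these exceptions. Without WT Mx of E10.5, members whose stage change differed among subpopulations went from 18 to 10, and those whose Ezh2cKO effect differed from 4 to 1, over 3 subpopulations in each. With only the groups compared, HoxA2OE calls went from 14 to 9 (fewer genes were tested and fewer samples gave the spread). Hoxa2TempMut calls went from 0 to 1 with DESeq2, 1 with only the groups compared and 1 without HoxA2OE libraries; the cause was not tested. Of the named differences, Nrarp and Heyl in FNP at E10.5 reversed without WT Mx, to 0.1958 and 0.2657.

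Leaving out each library in turn gave 18 to 21 members for the E10.5 subpopulations, 13 to 15 for those of E11.5, 24 to 25 for E10.5 against E8.5, 18 to 21 for E11.5 against E10.5, 16 to 19 for its difference among subpopulations, 10 to 15 for Ezh2cKO, 2 to 4 for its difference among subpopulations, 10 to 15 for HoxA2OE and 0 to 0 for Hoxa2TempMut. The 2 came without WT FNP replicate 3, WT Mx replicate 1 or 2, Ezh2cKO FNP replicate 3 or Ezh2cKO Mx replicate 3.

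The replicate block, with numbers that pair no samples (median correlation of same-numbered deviations 0.0106 over 345 pairs, 107 of them over 0.1, against -0.00802 over 690 other pairs), gave 20, 16, 25, 20, 18, 11, 4, 14 and 0 members in that order, with Lfng lost among the averaged Ezh2cKO calls. Of 149 named differences it took 2 past the threshold the other way (Nrarp in FNP at E10.5 and Dtx4 in Ezh2cKO PA2). Over planned settings other than single libraries 136 of the 149 kept their call, and with every single library left out 117 did.

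Counts over all genes moved by more than 1.5 times in some settings. Ezh2cKO averaged calls went from 6339 to 4191 without WT Mx, with the share of higher calls going from 52.4% to 67.4%. That share also moved where the count moved by less than 1.5 times. It was 65.7% of 5338 calls without the filter and 62.9% of 5373 without Ezh2cKO FNP replicate 2. With only the groups compared, calls went from 1885 to 3026 in Ezh2cKO PA2 (72.4% to 61.2% higher), from 11277 to 6400 in HoxA2OE, from 128 to 247 in Hoxa2TempMut (215 without HoxA2OE libraries), and from 335 to 546 for the differing Ezh2cKO effect (523 with DESeq2). Leaving out 1 library gave 870 or 911 in place of 1496 in Mx of E10.5, 3207 in place of 5058 in FNP of E11.5, down to 722 in place of 2111 in Ezh2cKO Mx, 1204 in place of 1823 in Ezh2cKO Md, 1229 in place of 1885 in Ezh2cKO PA2 and 75 in place of 128 in Hoxa2TempMut. Depth limits Dll1, Dll3, Dll4, Lfng, Mfng, Hes3 and Hes5, which had few counts in most groups after E8.5.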
